A study of Mus musculus with 12 samples.

Results

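The Slc25a genes encode the mitochondrial carrier family. They were followed in RNA-seq data of aortic smooth muscle cells grown as primary cultures from mice, 12 libraries in all. Members were taken as all rows of the deposited table whose symbol is Slc25a followed by a number alone, which gave 46 of 29462 genes, each on 1 row. The tested libraries came from global CSE knockout mice (KO, 6 libraries) and their controls from C57BL/6J mice (WT, 6 libraries). CSE is cystathionine gamma-lyase, the product of Cth, an enzyme that makes hydrogen sulfide from cysteine. KO and WT cultures alike had received angiotensin II at 1 uM for 24 h, so there is a single contrast and no untreated culture. Separate animals or cultures per library are not stated in the labels, so p-values measure the spread among these 12 libraries, part of which may be technical.

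Carriers of this family sit mostly in the inner mitochondrial membrane, where each exchanges or imports a small set of molecules that cannot cross it alone. They bring ADP and phosphate to ATP synthase and take ATP out, move amino acids and organic acids between matrix and cytosol, and supply the matrix with iron, nucleotides, glutathione and cofactors. A few members work elsewhere, Slc25a17 in peroxisomes and Slc25a46 on the outer mitochondrial membrane.

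Several features of the libraries bear on every result given here. The RNA of Cth averaged 0.005 ± 0.00837 FPKM in KO and 0.0233 ± 0.0288 FPKM in WT (SD, n = 6 each), near 0 in both, so it does not check the genotype labels. Of 8 smooth muscle markers, Myh11, Tagln and Cnn1 averaged under 1 FPKM in both genotypes, and only Acta2 and Smtn were high enough for the fit, neither of them past the threshold. Acta2 had 75.3 to 85.1 FPKM in KO replicates 1 to 4 and 141 and 146 FPKM in KO replicates 5 and 6. In WT it had 111 to 140 FPKM. Smtn had 8.81 to 9.64 FPKM in KO replicates 1 to 4 and 12.3 and 20.5 FPKM in KO replicates 5 and 6. Its WT values were 11.8 to 13.9 FPKM. Of the markers below the filter, Cnn1 averaged 0.135 FPKM in KO and 0.00833 FPKM in WT (exact permutation p = 0.00216, n = 6 each), Lmod1 0.627 FPKM in KO and 0.0333 FPKM in WT (exact permutation p = 0.00216, n = 6 each) and Tagln 0.695 FPKM in KO and 0.153 FPKM in WT (exact permutation p = 0.00433, n = 6 each). Des averaged 0.168 FPKM in KO and 0.0917 FPKM in WT (exact permutation p = 0.0325, n = 6 each). Myocd averaged 0.0333 FPKM in KO and was listed at 0 in all WT libraries (exact permutation p = 0.0152, n = 6 each). Myh11 averaged 0.00833 FPKM in KO and 0.0133 FPKM in WT (exact permutation p = 0.238, n = 6 each). The summed FPKM of the 8 was 86.4 to 169 in KO libraries and 124 to 152 in WT libraries. The summed FPKM of 8 epithelial and mesothelial markers was 44.5 to 67.9 in KO libraries and 146 to 155 in WT libraries. All 5 tested markers were called, Cdh1, Krt19 and Msln lower and Upk3b and Wt1 higher. Cdh1 averaged 0.86 ± 0.314 FPKM in KO and 65 ± 1.69 FPKM in WT (SD, n = 6 each). Its log2 change was -5.17 (adjusted p = 1.23e-13). Upk3b and Wt1 passed the filter through their KO libraries alone. Msln had 1.13 and 1.38 FPKM in KO replicates 5 and 6, and 4.73 to 4.84 FPKM in KO replicates 1 to 4. Below the filter, Krt18 averaged 0.245 FPKM in KO and 0.0467 FPKM in WT (exact permutation p = 0.00216, n = 6 each). Krt8 averaged 0.0917 FPKM in KO and 0.223 FPKM in WT (exact permutation p = 0.0173, n = 6 each). Epcam was near 0 in both. Of 5 fibroblast markers, Dpt and Pdgfra were higher in KO, and the sum was 35.9 to 184 in KO libraries and 63.3 to 80.8 in WT libraries. Dcn was not called (adjusted p = 0.73). It had 132 to 151 FPKM in KO replicates 1 to 4 and 26.7 and 22.1 FPKM in KO replicates 5 and 6. In WT it had 62.3 to 79.3 FPKM. Lum and Pi16 averaged under 0.05 FPKM in both genotypes, both lower in KO (exact permutation p = 0.522 and 0.0758, n = 6 each). Of 4 macrophage markers, Cd68 and Csf1r were higher in KO, while Ptprc and Adgre1 were near 0 in both. The macrophage sum was 7.87 to 14 in KO libraries and 2.09 to 2.84 in WT libraries. Dpt and Csf1r passed the filter through their KO libraries alone. The 4 endothelial markers were too low for the fit, with sums of 0.5 to 0.94 in KO libraries and 0.1 to 0.24 in WT libraries, as were the 5 adipocyte markers, with sums of 0.9 to 2.13 in KO libraries and 0.22 to 0.42 in WT libraries. Among them, Kdr averaged 0.623 FPKM in KO and 0.00333 FPKM in WT, without overlap (exact permutation p = 0.00216, n = 6 each). Fabp4 averaged 1.6 FPKM in KO and 0.247 FPKM in WT, also without overlap (exact permutation p = 0.00216, n = 6 each). Kdr and Fabp4 made up most of these KO sums. Pecam1, Tek and Cdh5 averaged at most 0.137 FPKM in either genotype, with Pecam1 and Tek lower in KO. Adipoq, Cidea, Plin1 and Ucp1 averaged at most 0.02 FPKM, all but Ucp1 lower in KO. None of these had an exact permutation p under 0.05. The part of these differences in the carrier results was not tested, and in bulk RNA fewer cells of a type and less RNA per cell cannot be told apart. KO replicates 5 and 6 stood apart from KO replicates 1 to 4. For some members, results are also given with KO replicates 1 to 4 only. This split was seen in these same values, so p-values from KO replicates 1 to 4 are descriptive and give no independent support. The marker results are those of all libraries.

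Of the 46 members, 33 reached at least 1 FPKM (fragments per kilobase of gene model, scaled to library size) in at least 6 of the 12 libraries and were tested on the log2(FPKM + 1) scale. Slc25a27 passed this filter through its WT libraries alone. In KO 8 of the 33 were higher and 11 lower at an adjusted p under 0.05, and 14 were not called. Those 19 calls are 57.6% of the tested members, where 63.5% of all 11831 genes tested were called, 32.6% higher and 30.9% lower, so the share of members called was near that of genes in general. The KO values all lay above the WT values in 7 tested members and all below in 9, together 16 of 33, against 23.8% and 22.5% of all genes tested, together 46.4%. The median log2 change was -0.13 for the tested members and 0.01 for all genes tested, and the median size of change was 0.29 and 0.32. With no filter on low values the median over all 46 members was 0.02. Changes of at least 0.5 on this scale were called in 8 members, 3 higher (Slc25a5, Slc25a14 and Slc25a33) and 5 lower (Slc25a12, Slc25a13, Slc25a23, Slc25a27 and Slc25a36), which is 24.2% of those tested, against 31.1% of all genes tested. With KO replicates 1 to 4 only, 13 members were higher and 14 lower, where 77.1% of all genes tested were called, 39.9% higher and 37.1% lower.

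**Figure D1:**
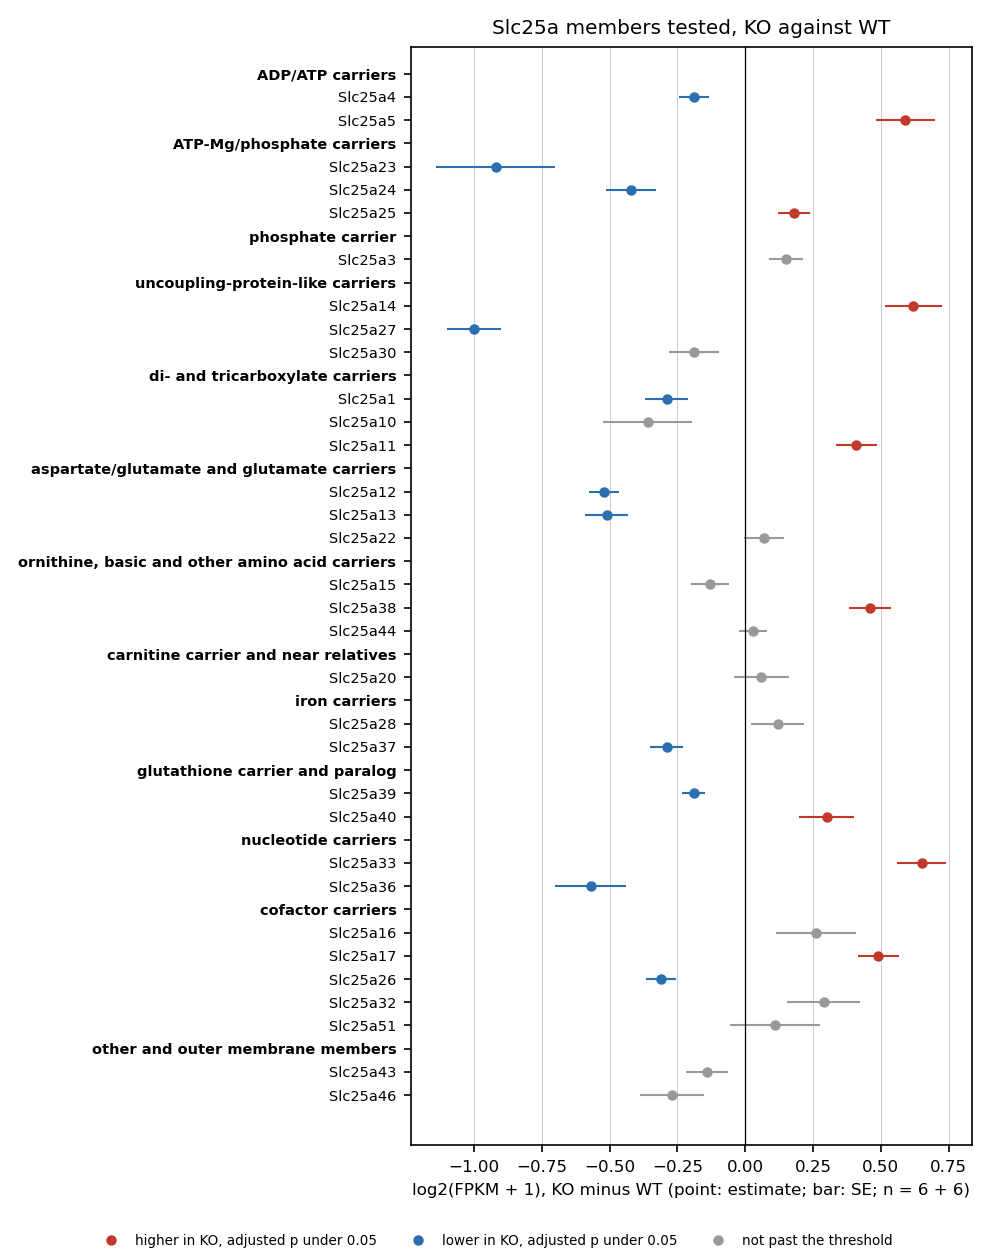
Estimated difference in log2(FPKM + 1), KO minus WT, for 32 of the tested Slc25a members, grouped by the molecules they carry; points are estimates, bars are SE, and colour gives the call at an adjusted p under 0.05. The estimates lie between -1 (Slc25a27) and 0.65 (Slc25a33), and several groups hold calls in both directions.

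With Slc25a5 counted, the family's summed FPKM was above every WT library in 5 of 6 KO libraries and within the WT range in KO replicate 6, and no test was run on it. The sum over the 46 members was 682 to 875 in KO libraries and 649.9 to 697 in WT libraries. Without Slc25a5 it was 420.5 to 510.4 in KO libraries and 503 to 516 in WT libraries. As a share of all FPKM in a library, the 46 members held 0.26% to 0.317% in KO and 0.231% to 0.251% in WT. On that scale KO replicate 6, at 0.267%, also lay above every WT library. Without Slc25a5 the share was 0.165% to 0.185% in KO libraries and 0.179% to 0.186% in WT libraries. Slc25a3, Slc25a4 and Slc25a5 together held 59.3% to 67% of the family sum in KO libraries and 54.1% to 56.8% in WT libraries. At the other end, 20 of the 33 tested members averaged under 10 FPKM in both genotypes.

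The ADP/ATP carriers exchange cytosolic ADP for matrix ATP and had the highest FPKM of the family. Slc25a5 (ENSMUSG00000016319), the isoform of proliferating and many other cells, had 223, 237 and 365 FPKM as lowest, median and highest KO value, against 146, 172 and 180.5 FPKM in WT. Every KO library stood above every WT library, KO replicate 5 highest at 365 FPKM. The mean was 259 ± 53.8 FPKM in KO and 169 ± 12.8 FPKM in WT (SD, n = 6 each). Slc25a5 was thus 1.53-fold higher in KO (log2 change 0.59 ± 0.109 SE, adjusted p = 0.000354). With KO replicates 1 to 4 only its log2 change was 0.46, adjusted p = 8.13e-06. Slc25a4 (ENSMUSG00000031633), the isoform known from heart and skeletal muscle, had 104, 117 and 134 FPKM as lowest, median and highest KO value, against 131, 134 and 136 FPKM in WT. KO replicate 5 lay within the WT range and the other 5 KO libraries below it (log2 change -0.19 ± 0.055 SE, adjusted p = 0.00963). Slc25a5 made up 65.5% to 73.1% of the summed FPKM of both genes in KO libraries and 52.8% to 57% in WT libraries. Of the 100-base stretches of Slc25a5 transcripts in GENCODE M21, 8.3% also stand in transcripts of 4 other genes, so its FPKM may hold or lack reads of these copies, whereas no stretch of Slc25a4 is shared.

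The promoters of these genes, and of the nucleotide carrier genes described further on, are shown because in each case near relatives differed in opposite directions. Each sequence is RefSeq's for the build GRCm38.p6, runs from 250 bases before to 50 after the annotated start, and has in capitals the matches, on either strand, to the motifs searched: the NRF1 site, the ETS core CCGGAAG, the E-box CACGTG, the CCAAT box CCAAT, the TATA box TATAAA, the AP-1 site TGACTCA and the ATF4 element TTGCATCA.
Slc25a5, chrX:36795347-36795646, plus strand: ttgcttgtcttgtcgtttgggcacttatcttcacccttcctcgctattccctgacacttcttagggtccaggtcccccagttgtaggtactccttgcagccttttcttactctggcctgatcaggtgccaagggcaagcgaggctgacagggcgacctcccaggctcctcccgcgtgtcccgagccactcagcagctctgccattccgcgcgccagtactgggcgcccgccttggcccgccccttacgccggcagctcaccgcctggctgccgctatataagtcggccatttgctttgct
Slc25a4, chr8:46211013-46211312, minus strand: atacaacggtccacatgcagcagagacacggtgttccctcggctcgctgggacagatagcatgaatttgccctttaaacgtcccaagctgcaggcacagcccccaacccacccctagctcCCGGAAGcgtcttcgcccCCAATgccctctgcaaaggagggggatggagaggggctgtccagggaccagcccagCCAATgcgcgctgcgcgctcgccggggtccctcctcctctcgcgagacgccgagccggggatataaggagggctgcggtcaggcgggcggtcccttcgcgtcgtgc
Slc25a33, chr4:149774218-149774517, minus strand: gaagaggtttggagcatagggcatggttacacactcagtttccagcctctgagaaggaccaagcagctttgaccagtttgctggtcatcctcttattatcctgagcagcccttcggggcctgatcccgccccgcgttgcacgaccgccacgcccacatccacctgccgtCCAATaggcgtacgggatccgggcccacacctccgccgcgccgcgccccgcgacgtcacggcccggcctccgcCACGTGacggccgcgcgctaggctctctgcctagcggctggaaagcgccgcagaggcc
Slc25a36, chr9:97110992-97111291, minus strand: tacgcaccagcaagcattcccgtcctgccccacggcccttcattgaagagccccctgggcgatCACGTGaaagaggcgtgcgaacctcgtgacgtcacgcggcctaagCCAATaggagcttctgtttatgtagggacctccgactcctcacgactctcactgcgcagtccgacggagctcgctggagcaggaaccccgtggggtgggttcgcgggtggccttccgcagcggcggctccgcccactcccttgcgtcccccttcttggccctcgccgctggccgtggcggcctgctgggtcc
Slc25a5 held no match, Slc25a4 an ETS core and 2 CCAAT boxes, and Slc25a33 and Slc25a36 each a CCAAT box and an E-box. A promoter was found for 36 genes of the family, Slc25a31 among them, which is no row of the table. The E-box stood in 19.4% of these and in 8.1% of 27025 genes with a promoter, the ETS core in 19.4% and 9.9%, and the CCAAT box in 52.8% and 41.1%. The NRF1 site stood in 5.6% and 5.2%, the TATA box in 5.6% and 15.7%, the AP-1 site in 2.8% and 5.9%, and the ATF4 element in 0% and 1%. A match is a description of these letters only.

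Slc25a3, the phosphate carrier that feeds ATP synthase, had 67.7, 85.7 and 87.5 FPKM as lowest, median and highest KO value, against 73, 74.9 and 75.2 FPKM in WT. In 5 of 6 KO libraries it was above every WT library, and KO replicate 6 was below all of them. The difference missed the threshold (log2 change 0.15 ± 0.062 SE, adjusted p = 0.0504). It passed when KO replicate 6 was left out (log2 change 0.21, adjusted p = 3.67e-05). KO replicates 1 to 4 alone gave a log2 change of 0.2, adjusted p = 2.48e-06. After quantile normalization of all libraries it was 0.03, adjusted p = 0.643.

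Among the ATP-Mg/phosphate carriers, which respond to cytosolic calcium and adjust the matrix adenine nucleotide pool, Slc25a23 and Slc25a24 fell and Slc25a25 rose. Slc25a23 (ENSMUSG00000046329) had 1.1, 3.71 and 4.62 FPKM as lowest, median and highest KO value, against 5.85, 6.14 and 6.74 FPKM in WT. All KO values lay below all WT values, with KO replicates 5 and 6 at 1.1 and 1.46 FPKM and the other 4 at 3.65 to 4.62 FPKM. Its mean was 3.08 ± 1.44 FPKM in KO and 6.22 ± 0.352 FPKM in WT (SD, n = 6 each), 2.02-fold lower in KO (log2 change -0.92 ± 0.218 SE, adjusted p = 0.00239). With KO replicates 1 to 4 only the log2 change of Slc25a23 was -0.54, adjusted p = 2.7e-06. Slc25a24, by FPKM the main carrier of this group, had 13.7, 17.6 and 23.3 FPKM in KO, against 23.2, 24.1 and 25.5 FPKM in WT (log2 change -0.42 ± 0.092 SE, adjusted p = 0.00135), and KO replicate 5 alone reached into its WT range. Slc25a25 had 2.42, 2.59 and 3.2 FPKM in KO, against 2.02, 2.23 and 2.39 FPKM in WT, with no overlap (log2 change 0.18 ± 0.058 SE, adjusted p = 0.0171). It shares 3.5% of its 100-base stretches with Naif1 on the opposite strand, and its call was lost with the replicate number as a block. The summed FPKM of the 3 genes was 17.8 to 27.6 in KO libraries and 32 to 34 in WT libraries, and Slc25a25 held 10.1% to 14.5% of it in KO and 6.3% to 7.1% in WT. Slc25a41, the remaining gene of this kind, was listed at 0 in 5 of 6 KO libraries and in 5 of 6 WT libraries.

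Carriers that resemble the uncoupling proteins of brown fat also split. Slc25a27, also called UCP4 and known from brain, had 0.46, 0.83 and 0.99 FPKM as lowest, median and highest KO value, against 2.14, 2.56 and 3.48 FPKM in WT. The genotypes did not overlap, and the mean was 0.793 ± 0.217 FPKM in KO and 2.6 ± 0.483 FPKM in WT (SD, n = 6 each), 3.28-fold lower in KO (log2 change -1 ± 0.1 SE, adjusted p = 1.37e-06). With pseudocounts of 0.1 and 0.01 in place of 1 its log2 change was -1.62 and -1.73. Slc25a14, also called UCP5, had 2.62, 4.09 and 4.72 FPKM in KO, against 1.77, 2.24 and 2.54 FPKM in WT, again with no overlap (1.8-fold higher, log2 change 0.62 ± 0.104 SE, adjusted p = 0.000158). Slc25a30 averaged 6.45 ± 1.02 FPKM in KO and 7.42 ± 0.419 FPKM in WT (SD, n = 6 each) and was not called (adjusted p = 0.0897). In the sum of these 3 genes Slc25a27 held 4% to 8.9% in KO libraries and 18.6% to 25.4% in WT libraries, and Slc25a14 held 32.2% to 39.4% in KO and 15.4% to 20.3% in WT. The uncoupling protein genes proper were near 0: Ucp1 averaged 0.02 FPKM in KO and 0.005 FPKM in WT, Ucp2 0.0517 FPKM in KO and 0.055 FPKM in WT and Ucp3 0 FPKM in KO and 0.02 FPKM in WT.

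**Figure D2:**
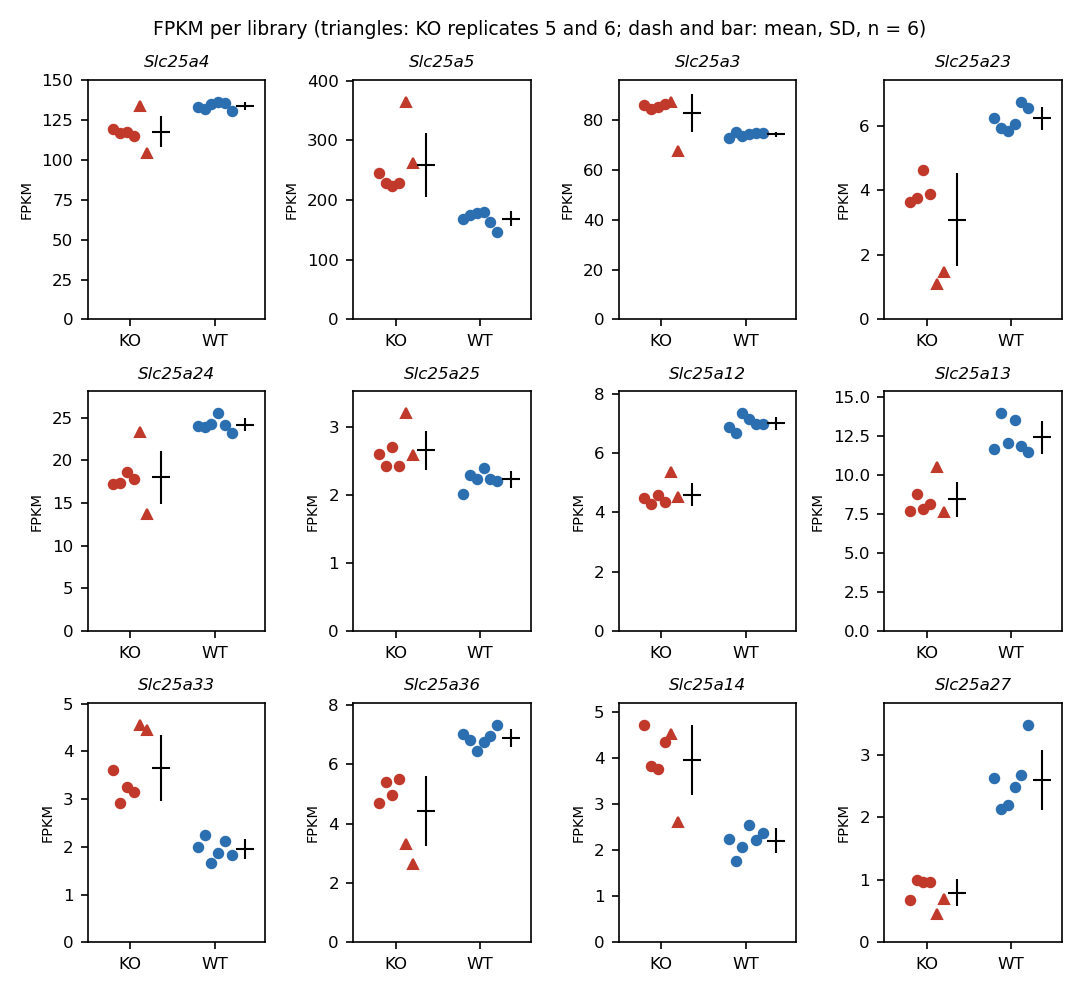
FPKM in each library for 12 Slc25a members, KO on the left and WT on the right of each panel, with KO replicates 5 and 6 as triangles and the mean with SD (n = 6) beside the points. In Slc25a5, Slc25a14, Slc25a25 and Slc25a33 all KO values lie above all WT values, and in Slc25a12, Slc25a13, Slc25a23, Slc25a27 and Slc25a36 all lie below.

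The nucleotide carriers Slc25a33 and Slc25a36, whose promoters are printed above, bring pyrimidine nucleotides into the matrix, where they serve mitochondrial DNA and RNA synthesis. Slc25a33 (ENSMUSG00000028982) had 2.93, 3.44 and 4.56 FPKM as lowest, median and highest KO value, against 1.66, 1.94 and 2.25 FPKM in WT. All its KO values were higher (1.87-fold, log2 change 0.65 ± 0.092 SE, adjusted p = 3.76e-05). Slc25a36 had 2.64, 4.84 and 5.5 FPKM in KO, against 6.47, 6.9 and 7.34 FPKM in WT, and all its KO values were lower (1.56-fold, log2 change -0.57 ± 0.13 SE, adjusted p = 0.00173). KO replicates 5 and 6 were at the far end in both genes, at 4.56 and 4.44 FPKM for Slc25a33 and 3.31 and 2.64 FPKM for Slc25a36. With KO replicates 1 to 4 only the log2 change was 0.52, adjusted p = 8.71e-06 for Slc25a33 and -0.36, adjusted p = 1.38e-05 for Slc25a36. Slc25a33 held 35.1% to 62.7% of their summed FPKM in KO libraries and 20% to 24.8% in WT libraries, while the sum itself was 7.08 to 8.66 FPKM in KO and 8.13 to 9.17 FPKM in WT. Of the 100-base stretches of Slc25a33, 10.2% stand also in the antisense gene Gm13068, which averaged 0.051 FPKM over the 12 libraries. Slc25a36 is overlapped on the opposite strand by Gm16185, at 2.04 FPKM.

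**Figure D3:**
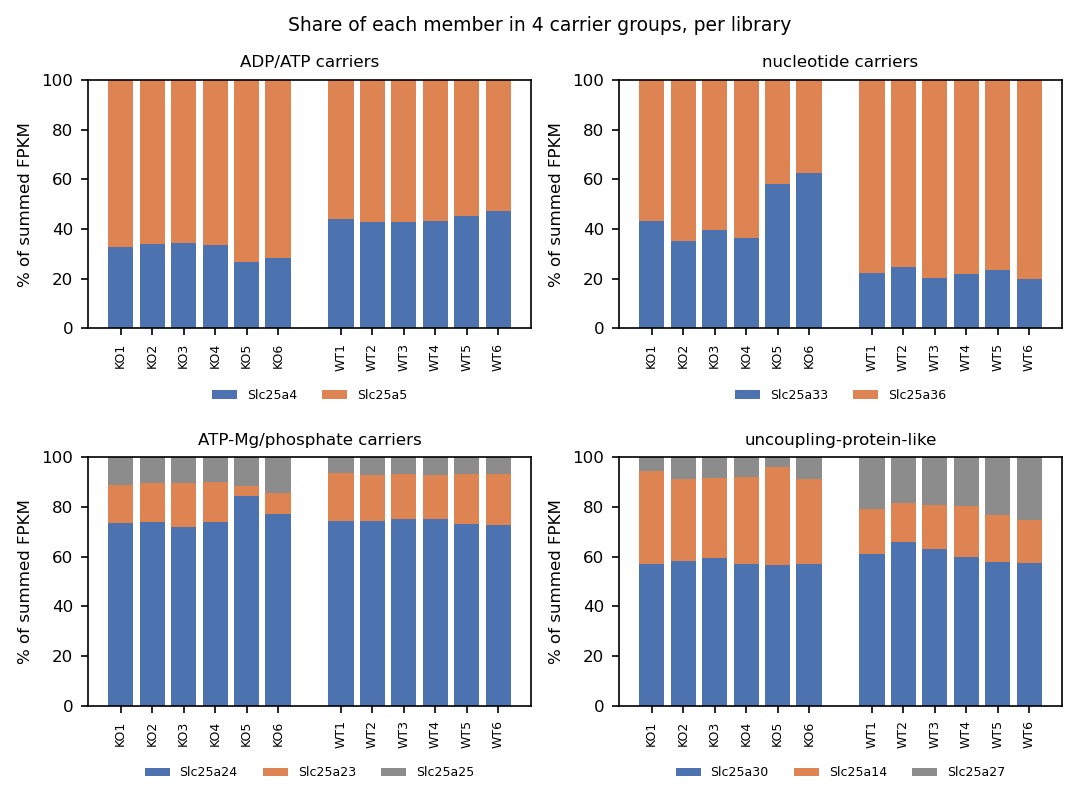
Percent of the summed FPKM of a carrier group held by each of its members in the 6 KO libraries (left) and 6 WT libraries (right) for 4 groups. Slc25a4 takes 26.9% to 34.5% of the ADP/ATP carrier sum in KO and 43% to 47.2% in WT, and Slc25a33 exceeds Slc25a36 in KO replicates 5 and 6 alone.

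Both aspartate/glutamate carriers fell. Slc25a12 and Slc25a13 export aspartate from the matrix in exchange for glutamate as part of the malate-aspartate shuttle. Slc25a12 had 4.27, 4.51 and 5.37 FPKM as lowest, median and highest KO value, against 6.68, 6.99 and 7.35 FPKM in WT, without overlap (1.52-fold lower, log2 change -0.52 ± 0.054 SE, adjusted p = 1.95e-06). Slc25a13 had 7.62, 7.96 and 10.5 FPKM in KO, against 11.4, 11.9 and 13.9 FPKM in WT, without overlap (1.47-fold lower, log2 change -0.51 ± 0.079 SE, adjusted p = 7.51e-05). Slc25a13 held 62.8% to 67.2% of their sum in KO libraries and 62% to 67.6% in WT libraries, so these ranges overlapped. The glutamate carrier Slc25a22 averaged 2.17 ± 0.307 FPKM in KO and 2.02 ± 0.227 FPKM in WT (SD, n = 6 each) and was not called (adjusted p = 0.44). Its relative Slc25a18 was at or under 0.08 FPKM in KO and 0.14 FPKM in WT.

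The organic acid carriers did not share a direction. Slc25a11, which exchanges 2-oxoglutarate for malate and is the other carrier of the malate-aspartate shuttle, had 29, 38.3 and 40.2 FPKM as lowest, median and highest KO value, against 26, 27.8 and 28.5 FPKM in WT. All its KO values were higher (1.34-fold, log2 change 0.41 ± 0.074 SE, adjusted p = 0.000325). Quantile normalization gave a log2 change of 0.26, adjusted p = 0.00615. The overlapping gene Rnf167 on the other strand holds 4.0% of its 100-base stretches. Slc25a1, which exports citrate for fatty acid synthesis, had 20.8, 26.8 and 28.7 FPKM in KO, against 29, 30.7 and 34.1 FPKM in WT, with all KO values lower (log2 change -0.29 ± 0.081 SE, adjusted p = 0.00738). With KO replicates 1 to 4 only its log2 change was -0.17, adjusted p = 0.00306. Slc25a10, which exchanges malate or succinate for phosphate, averaged 15.9 ± 5.34 FPKM in KO and 20.1 ± 1.91 FPKM in WT (SD, n = 6 each) and was not called (adjusted p = 0.0671). Slc25a21, a carrier of oxodicarboxylates, was listed at 0 in all KO libraries and at no more than 0.01 FPKM in WT.

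Of the 3 other amino acid carriers tested, Slc25a38, which brings glycine into the matrix for heme synthesis, was called. It had 2.56, 3.58 and 3.87 FPKM as lowest, median and highest KO value, against 2.02, 2.17 and 2.41 FPKM in WT, without overlap (1.55-fold higher, log2 change 0.46 ± 0.076 SE, adjusted p = 0.000137). Slc25a15, an ornithine carrier of the urea cycle, averaged 2.08 ± 0.314 FPKM in KO and 2.36 ± 0.12 FPKM in WT (SD, n = 6 each) and was not called (adjusted p = 0.128). Slc25a44, a carrier of branched-chain amino acids, averaged 8.11 ± 0.384 FPKM in KO and 7.92 ± 0.443 FPKM in WT (SD, n = 6 each), and its estimate was the smallest of the tested members (log2 change 0.03 ± 0.051 SE, adjusted p = 0.615).

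Of the mitoferrins, which import iron for heme and iron-sulfur clusters, Slc25a37 fell. It had 10.8, 12.1 and 13.8 FPKM as lowest, median and highest KO value, against 14.3, 15.2 and 16.4 FPKM in WT, all KO values lower (log2 change -0.29 ± 0.06 SE, adjusted p = 0.000787), and shares 6.1% of its 100-base stretches with 3 other genes. Slc25a28 averaged 5.48 ± 1.12 FPKM in KO and 4.9 ± 0.258 FPKM in WT (SD, n = 6 each) and was not called (adjusted p = 0.304), with 6.34 and 7.29 FPKM in KO replicates 5 and 6 and 4.41 to 5.39 FPKM in KO replicates 1 to 4. Slc25a39, which imports glutathione, had 40.5, 41.8 and 44.7 FPKM in KO, against 46.5, 47.7 and 50 FPKM in WT, without overlap and lower (log2 change -0.19 ± 0.043 SE, adjusted p = 0.00185). Its paralog Slc25a40 had 0.81, 1.66 and 1.97 FPKM in KO, against 1.02, 1.05 and 1.2 FPKM in WT (log2 change 0.3 ± 0.102 SE, adjusted p = 0.022). With pseudocounts of 0.1 and 0.01 the change of Slc25a40 was 0.47 and 0.5, and after quantile normalization that of Slc25a39 was -0.31. KO replicate 6 was below all WT libraries for Slc25a40. Leaving out KO replicate 2 or KO replicate 4 ended this call (adjusted p = 0.0511 and 0.0505), as did testing every gene whatever its level (adjusted p = 0.054).

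Of 6 cofactor carriers tested, 1 rose and 1 fell. Slc25a17, the peroxisomal carrier of coenzyme A and related nucleotides, had 18.6, 24.9 and 26 FPKM as lowest, median and highest KO value, against 15.1, 17.1 and 17.4 FPKM in WT. All its KO values were higher (1.44-fold, log2 change 0.49 ± 0.076 SE, adjusted p = 7.53e-05). Slc25a26, which brings S-adenosylmethionine, the methyl donor made in the methionine cycle upstream of CSE, into mitochondria, had 0.83, 1.03 and 1.16 FPKM in KO, against 1.41, 1.5 and 1.57 FPKM in WT, all KO values lower (1.48-fold, log2 change -0.31 ± 0.054 SE, adjusted p = 0.000194). With these smaller pseudocounts its log2 change was -0.53 and -0.57. It overlaps Lrig1 on the opposite strand, at 13.2 FPKM. Slc25a42, a coenzyme A carrier too low to test, averaged 0.682 FPKM in KO and 0.667 FPKM in WT (exact permutation p = 0.842, two-sided, n = 6 each).

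In 16 of the 33 tested members KO replicates 5 and 6 lay both above (5) or both below (11) all of KO replicates 1 to 4, where 24.7% and 32.3% of all genes tested did. Slc25a10 had 11.7 to 13.4 FPKM in KO replicates 1 to 4 and 22.1 and 23.4 FPKM in KO replicates 5 and 6, against 18 to 23.2 FPKM in WT. Slc25a51, the NAD carrier, had 14.7 to 15.3 FPKM in KO replicates 1 to 4 and 9.28 and 6.82 FPKM in KO replicates 5 and 6, against 10.9 to 12.2 FPKM in WT. For both genes KO replicates 1 to 4 stood on 1 side of WT while KO replicates 5 and 6 were within its range or beyond its other end. Slc25a32, which brings folate or FAD into the matrix, had 6.74 to 7.52 FPKM in KO replicates 1 to 4 and 5 and 3.63 FPKM in KO replicates 5 and 6, against 4.56 to 5.29 FPKM in WT.

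With KO replicates 1 to 4 only, the 19 calls were kept and 8 members were added. Where KO replicates 5 and 6 lie apart, leaving them out narrows the KO spread by construction. Smaller p-values in such members are therefore no added support. The log2 changes were -0.64, adjusted p = 1.63e-06 for Slc25a10, 0.39, adjusted p = 5.78e-07 for Slc25a51, 0.51, adjusted p = 5.42e-07 for Slc25a32 and 0.47, adjusted p = 1.49e-05 for Slc25a16. They were 0.22, adjusted p = 0.000277 for Slc25a20 and -0.18, adjusted p = 0.00042 for Slc25a46, and Slc25a3 was also among the members added. Slc25a20, the carnitine and acylcarnitine carrier of fatty acid oxidation, had 5.88 to 6.36 FPKM in KO replicates 1 to 4 and 4.32 and 3.99 FPKM in KO replicates 5 and 6, against 4.88 to 5.59 FPKM in WT. Slc25a16 had 4.5 to 5.11 FPKM in KO replicates 1 to 4 and 3.49 and 2.01 FPKM in KO replicates 5 and 6, against 2.7 to 3.65 FPKM in WT. With all libraries the adjusted p was 0.0671 for Slc25a10, 0.593 for Slc25a51, 0.0748 for Slc25a32, 0.14 for Slc25a16, 0.593 for Slc25a20 and 0.0623 for Slc25a46. KO replicate 6 was the lowest KO library in 19 of the 33 tested members, and in 34.3% of all genes tested. Slc25a46, which takes part in the shaping of mitochondria, had 5.47 FPKM there, against 10.5 to 11.6 FPKM in WT.

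**Figure D4:**
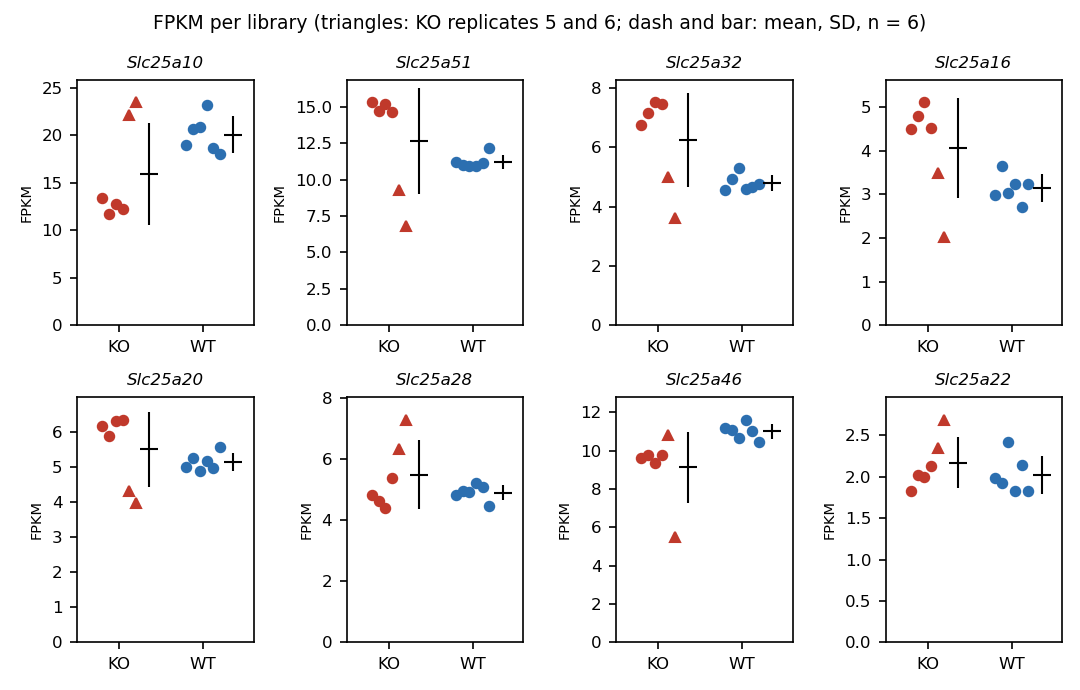
FPKM in each library for 8 Slc25a members, KO on the left and WT on the right, with KO replicates 5 and 6 as triangles and the mean with SD (n = 6) beside the points. In Slc25a10, Slc25a28 and Slc25a22 the triangles lie above KO replicates 1 to 4, and in Slc25a51, Slc25a32, Slc25a16 and Slc25a20 they lie below; in Slc25a46 they do not both lie on 1 side.

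The 13 members too low for the fit were each compared by exact permutation of the genotype labels, and 3 of them had a p under 0.05, each higher in KO. Of all genes below the filter 20.4% did, 12.7% higher and 7.7% lower in KO. Slc25a48, linked to choline import, had 0.11, 0.28 and 0.67 FPKM as lowest, median and highest KO value and was listed at 0 in all 6 WT libraries (exact permutation p = 0.00216, two-sided, the smallest these permutations can give). Slc25a45 had 0.69, 1.08 and 1.21 FPKM in KO, against 0.33, 0.44 and 0.62 FPKM in WT, without overlap (exact permutation p = 0.00216, n = 6 each). Slc25a34 was at or under 0.19 FPKM in KO and 0.02 FPKM in WT (exact permutation p = 0.0195, n = 6 each). Slc25a29, a carrier of basic amino acids, averaged 0.585 FPKM in KO and 0.425 FPKM in WT (exact permutation p = 0.0931, n = 6 each). Slc25a54 was listed at 0 in all WT libraries and at or under 0.06 FPKM in KO (exact permutation p = 0.0606, n = 6 each). Slc25a35 averaged 0.673 FPKM in KO and 0.643 FPKM in WT (exact permutation p = 0.898, n = 6 each). These 3 genes, with KO replicates 1 to 4 only, had an exact permutation p of 0.0143 (Slc25a29), 0.0333 (Slc25a54) and 0.0429 (Slc25a35). Slc25a34, Slc25a45 and Slc25a48 then had 0.00476 each, the smallest that 4 against 6 libraries can give, so 6 of the 13 were under 0.05, each higher in KO. Of all genes below the filter 22.1% were, 15.7% higher in KO. Of the 100-base stretches of Slc25a35, 19.0% also stand in transcripts of 2 other genes. One of them is Rangrf, which overlaps Slc25a35 on the opposite strand and averaged 6.71 FPKM over the 12 libraries. Slc25a2, Slc25a47 and Slc25a53, with the low members named earlier, make up the rest. Slc25a43, a tested member, averaged 1.28 ± 0.245 FPKM in KO and 1.52 ± 0.201 FPKM in WT (SD, n = 6 each) and was not called (adjusted p = 0.12). The authors' deposited table marked 5 of the 46 members as significant, and 4411 of all 29462 genes. The members were Slc25a34, Slc25a45 and Slc25a48, higher in KO, and Slc25a23 and Slc25a27, lower in KO.

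Genes listed beside the carriers were read from the same fit, in which 63.5% of all genes were called. Mtch1 and Mtch2, outer membrane relatives of the family, were not called. Mtch1 averaged 27.5 ± 4.25 FPKM in KO and 30 ± 0.957 FPKM in WT (SD, n = 6 each) (adjusted p = 0.221) and Mtch2 13.8 ± 2.18 FPKM in KO and 15.3 ± 0.293 FPKM in WT (adjusted p = 0.17); both were called lower after quantile normalization. Of 7 genes for the import of carrier proteins, Timm10 and Timm22 were higher and Tomm70a and Agk lower. Timm10, a chaperone of the intermembrane space, averaged 14.1 ± 2.9 FPKM in KO and 8.59 ± 1.26 FPKM in WT (adjusted p = 0.000376). Tomm70a, the outer membrane receptor for carriers, averaged 9.41 ± 0.877 FPKM in KO and 12.2 ± 0.734 FPKM in WT (adjusted p = 0.000329).

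Of 10 enzymes on either side of the malate-aspartate and citrate carriers, 6 were higher and 2 lower. Mdh2, mitochondrial malate dehydrogenase, averaged 57.8 ± 4.91 FPKM in KO and 38.9 ± 0.89 FPKM in WT (SD, n = 6 each) (log2 change 0.55, adjusted p = 1.8e-06). The cytosolic malic enzyme gene Me1 averaged 28.8 ± 2.25 FPKM in KO and 18.3 ± 0.497 FPKM in WT (adjusted p = 5.63e-07). The aspartate aminotransferase genes Got1 and Got2 were higher too, with log2 changes of 0.51 and 0.45, whereas Slc25a12 and Slc25a13 of the same shuttle were lower. Idh2 and the citrate-cleaving enzyme gene Acly were lower, with log2 changes of -0.57 and -0.24.

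Of 8 genes of mitochondrial iron use, 4 were higher and 3 lower. Iscu, the scaffold of iron-sulfur cluster assembly, averaged 17.9 ± 2.01 FPKM in KO and 7.77 ± 0.362 FPKM in WT (SD, n = 6 each) (log2 change 1.1, adjusted p = 1.47e-08). Alas1, which starts heme synthesis from glycine, averaged 11.3 ± 1.54 FPKM in KO and 5.69 ± 0.263 FPKM in WT (log2 change 0.87, adjusted p = 3.12e-07). Abcb10, an inner membrane transporter, averaged 4.02 ± 0.443 FPKM in KO and 6.51 ± 0.307 FPKM in WT (log2 change -0.59, adjusted p = 2.45e-06). Of 9 genes for proline, glutamine and ornithine metabolism all 8 tested were called, 5 higher and 3 lower. Glud1, glutamate dehydrogenase, averaged 68.1 ± 5.31 FPKM in KO and 99 ± 2.3 FPKM in WT (adjusted p = 1.39e-06). Aldh18a1, which starts proline synthesis, averaged 20.1 ± 1.15 FPKM in KO and 16.1 ± 0.3 FPKM in WT (adjusted p = 8.36e-05).

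Among 7 genes of the pyruvate carrier and the outer membrane channels and translocase, Vdac1, Vdac2, Mpc1 and Tomm20 were lower and Mpc2 and Tomm40 higher. Vdac2 averaged 44.2 ± 3.67 FPKM in KO and 54 ± 1.39 FPKM in WT (SD, n = 6 each) (adjusted p = 0.000718). Tomm20 averaged 18.8 ± 2.62 FPKM in KO and 25 ± 0.699 FPKM in WT (adjusted p = 0.000983). Of the carnitine acyltransferase genes listed beside Slc25a20, Cpt1c and Cpt1a were higher and Crat lower. Their log2 changes were 0.62, 0.36 and -0.26 (adjusted p = 1.12e-05, 0.0104 and 0.00406). The call of Cpt1a was lost after quantile normalization. Whether Cpt1c acts in the mitochondrial shuttle with Slc25a20 was not tested. The median log2 change was 0.45 for the malate-aspartate and citrate enzymes, 0.34 for the proline, glutamine and ornithine enzymes and 0.26 for the iron genes. It was 0.14 for import, 0.11 for the carnitine acyltransferase genes and -0.18 for the pyruvate carrier and channels.

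**Figure D5:**
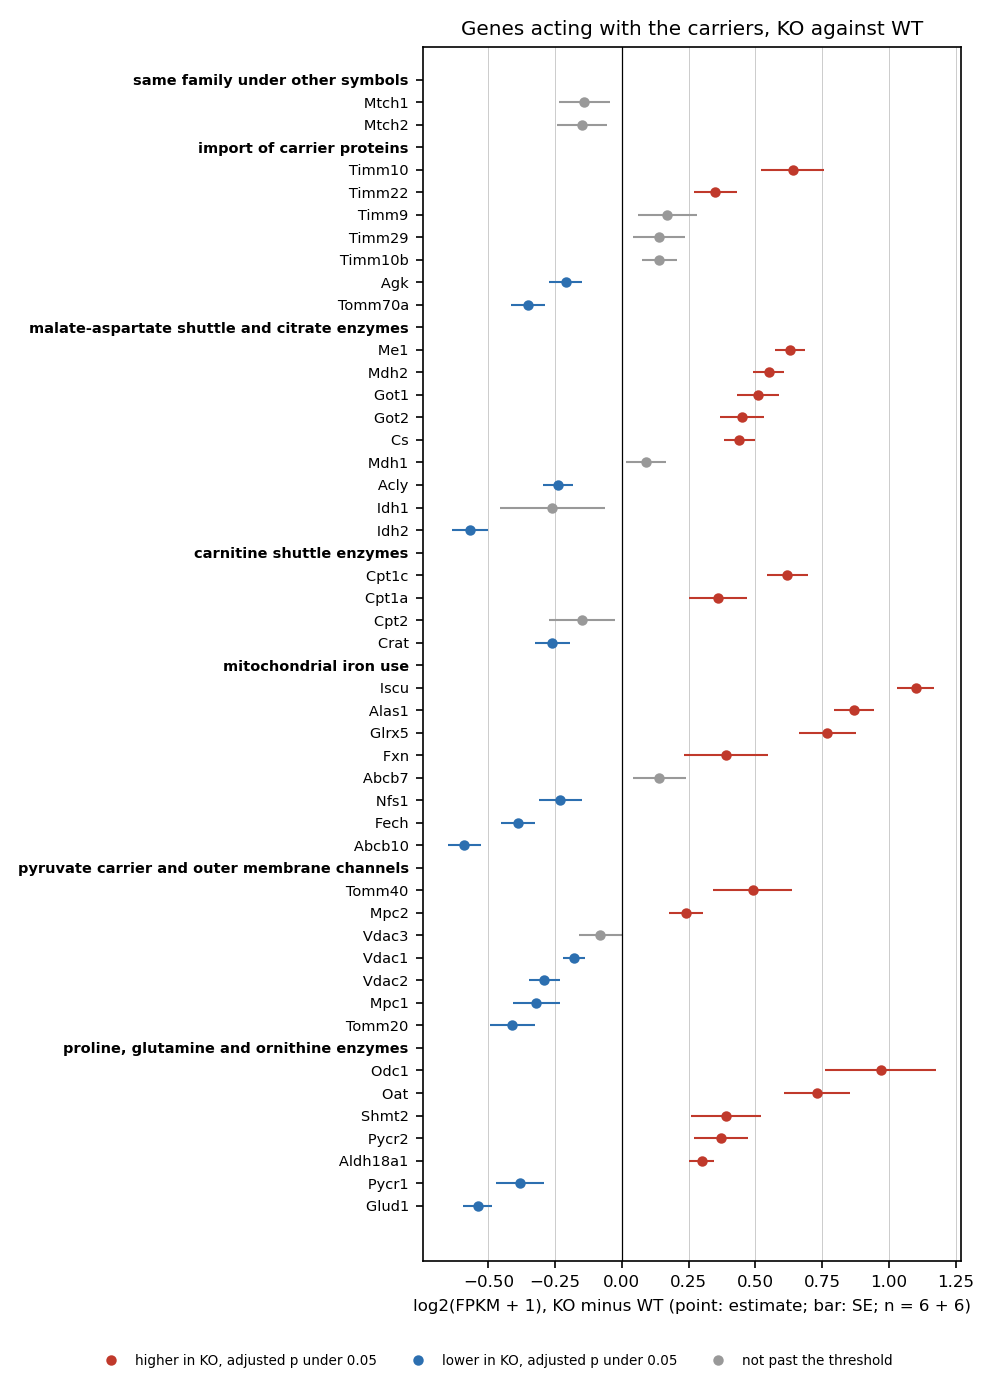
Estimated difference in log2(FPKM + 1), KO minus WT, for tested genes of 7 lists set beside the carriers. Points are estimates, bars are SE, and colour gives the call at an adjusted p under 0.05. Iscu has the highest estimate at 1.1 and Abcb10 the lowest at -0.59.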

How the data were processed

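RNA was measured in 12 libraries, 6 KO and 6 WT, grouped by genotype label. Per the labels' protocols, polyadenylated RNA was fragmented and strand marked with dUTP; no source used here says how strand entered the counting. Tools named in the submitters' processing notes, with no roles, are StringTie 1.3.4d, HISAT2 2.0.4, cutadapt 1.9, edgeR and DESeq2, and the build named is mm9. The authors deposited FPKM to 2 decimals, and beside it their own WT over KO ratio, its log2 value, and a p-value with its q-value, whose test is not stated. Read depth is unknown. FPKM sums ran from 255538 to 281432 per library.

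The members and lists were chosen with earlier results of these data known. On log2(FPKM + 1), genes reaching 1 FPKM in 6 or more libraries were compared by limma 3.58.1 (R 4.3.3) with a variance trend and no covariate, two-sided, Benjamini-Hochberg over all 11831 genes at 0.05. The scale understates changes of low genes; folds are ratios of mean FPKM. Lower members had exact permutation tests, unadjusted. Full values are given for members called with a change of at least 0.5, those averaging at least 50 FPKM in a genotype, and their paralogs; full values of other members, and companion genes beyond the 3 called ones with the smallest p in each list, were chosen after their values were seen. Gene models and shared 100-base stretches are from GENCODE M21 (GRCm38), to which all 46 members matched. A tested member and a few companion genes enter the fits and counts but are not reported here by name or shown in figures. The tests were tried on simulated data. Alternatives covered the pseudocount, the filter, scaling, the variance trend, the replicate number as a block and left-out libraries; where scaling or libraries changed, the genes tested were held fixed.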

Additional observations from a re-analysis of the deposited data

Results flagged for a closer look

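In 64 groups of 6 values, 1 for each of 32 tested members in each genotype, 8 held a library whose gap to the next was over 0.625 of the group's range. Chance gives about 1 in 20 for independent groups of normal values. These groups come from the same libraries and are not independent. The share over all genes is not given, so the count is no result about the members. KO replicate 6 was such a low value in 4 members: Slc25a3 at 67.68 FPKM (next 84.54), Slc25a17 at 18.65 (next 24.48), Slc25a30 at 4.42 (next 6.48) and Slc25a46 at 5.47 (next 9.36). KO replicate 5 was such a high value in 3 members: Slc25a5 at 364.61 FPKM (next 261.37), Slc25a12 at 5.37 (next 4.59) and Slc25a25 at 3.2 (next 2.71). In WT, Slc25a51 was such a high value in replicate 6, at 12.18 FPKM (next 11.19).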

How the results depend on the processing

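No call of the 33 tested members changed direction under the alternatives run. Of their refits 679 stayed on their side of the threshold, 30 came to pass it and 4 no longer did: Slc25a40 without KO replicate 2, without KO replicate 4 and with no filter, and Slc25a25 with the replicate block (adjusted p = 0.052). With at least 5 FPKM in at least 6 libraries 20 members could be tested, 3 of them higher and 9 lower in KO, and 2505 of all genes were higher and 2270 lower (65.9% called); fewer genes enter that fit. With KO replicates 1 to 4 only, 13 members were higher and 14 lower (77.1% of all genes called). The cause was not tested. With single libraries left out, 7 to 12 members were higher and 11 to 14 lower, and 60.2% to 68.5% of all genes were called. Without KO replicate 6 the counts were 12 higher and 14 lower (68.5% of all genes called). Without KO replicate 5 they were 9 higher and 14 lower (65.7% of all genes called). Quantile normalization gave 8 higher and 14 lower (64.2% of all genes called), and turned the log2 difference of Slc25a53, below the filter, to -0.076 (exact permutation p = 0.0476, n = 6 each) from 0.001; the cause was not tested. Mean shares within carrier groups without KO replicates were added after seeing the data. Same-numbered libraries deviated together in 0 of 6 pairs (correlations of -0.273 to -0.058), which gave no sign of pairing by number. Pairing is not excluded, because the split of KO replicates 5 and 6 also enters these deviations. With the replicate number as a block 7 members were higher and 11 lower (58.8% of all genes called). The median log2 change over members, -0.13, was 0.02 with no filter, where all 46 enter, and -0.19 to -0.07 otherwise. FPKM without read counts gives no counting error.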
